A study of Mus musculus with 6 samples.

Results

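Genes that turn cholesterol into bile acids and couple bile acids to amino acids were examined in mouse livers overexpressing the transcription factor MAFG from an adenovirus with Mafg cDNA (Ad-MAFG). The set was fixed by name and holds 10 enzymes, Cyp7a1, Cyp8b1, Cyp27a1, Cyp7b1, Cyp39a1, Hsd3b7, Akr1d1, Amacr, Slc27a5 and Baat. Of these, 9 have at least 1 row in the deposited table, out of 46528 gene names in all, and Hsd3b7 was not analysed here. Total RNA came from livers of 6 wild-type C57BL/6 mice, which were 10 weeks old and fed the diet labelled NCD. In the Ad-MAFG group 3 mice received the Mafg virus, and in the Ad-CMV group 3 mice received the empty vector, so that all animals carried an adenovirus. The cytomegalovirus promoter of both vectors is not restricted to one cell type. Small MAF proteins such as MAFG bind DNA and lack a transactivation domain. Since Mafg was not analysed here, its level gives no check of which group is which.

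Bile acids are the main route by which the body removes cholesterol, and the pathway is a function of hepatocytes. In the classic pathway Cyp7a1 takes the first step by hydroxylating the ring of cholesterol, and Cyp8b1 later directs the product towards cholic acid. In the alternative pathway Cyp27a1 first oxidises the side chain in mitochondria, and Cyp7b1 then hydroxylates the ring of the oxysterol. Side chain oxidation by Cyp27a1 also serves the classic pathway, so its level is not specific to the alternative route. Both routes share the ring enzymes Hsd3b7 and Akr1d1 and the peroxisomal racemase Amacr, and end with the CoA ligase Slc27a5 and the acyltransferase Baat, which joins the bile acid to taurine or glycine. When bile acids return to the liver, the receptor FXR represses Cyp7a1 and Cyp8b1.

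Promoter sequences are shown for 1 enzyme of each pathway, Cyp27a1 and Cyp8b1, since MAFG is a DNA-binding factor and these windows hold the start of each gene. RefSeq (GRCm38.p6) gave the 250 bases before and 50 bases after the gene start for 4 of the 10 enzymes, these 2 with Hsd3b7 and Akr1d1. Letters searched on both strands were TGCTGA, which opens small MAF sites, TGACNNNGC, the core bound by heterodimers of small MAF proteins, and AAGGTCA, a site of the bile acid regulator LRH-1. The first and second overlap within a full small MAF site. Capitals mark a match.
Cyp27a1 (chr1:74713285-74713584, plus strand): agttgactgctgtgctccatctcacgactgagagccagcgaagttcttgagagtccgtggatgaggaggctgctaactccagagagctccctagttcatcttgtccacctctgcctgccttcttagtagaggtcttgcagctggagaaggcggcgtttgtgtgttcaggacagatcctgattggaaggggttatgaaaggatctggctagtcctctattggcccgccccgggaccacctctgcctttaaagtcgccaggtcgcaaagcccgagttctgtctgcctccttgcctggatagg
Cyp8b1 (chr9:121916256-121916555, minus strand): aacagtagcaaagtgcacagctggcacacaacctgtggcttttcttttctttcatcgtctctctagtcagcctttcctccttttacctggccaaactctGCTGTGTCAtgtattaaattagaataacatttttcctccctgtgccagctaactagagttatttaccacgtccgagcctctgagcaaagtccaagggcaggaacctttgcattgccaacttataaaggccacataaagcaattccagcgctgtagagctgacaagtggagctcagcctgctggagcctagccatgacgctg
The Cyp8b1 window held 1 match to TGACNNNGC, on the strand not printed, from base -151 to base -143 relative to the start. None of the 3 motifs was found in the windows of Cyp27a1, Hsd3b7 or Akr1d1. Among 32544 promoter windows of this length, 19.5% held TGCTGA, 12.4% TGACNNNGC and 4.71% AAGGTCA.

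The values are the authors' FPKM (fragments per kilobase of transcript, scaled to mapped fragments), 1 pooled value per group and none per mouse. No SD can be given from these values, no test could be run on them, and the authors' own p-values and q-values were not used. Depth per library is unknown. Every difference below is therefore a description of these pooled libraries without a replicate check. Ratios are log2 of the Ad-MAFG over the Ad-CMV FPKM, given where the higher group had at least 1 FPKM and both were above 0. A gene is called lower or higher past a ratio of 1.5-fold (0.58 on the log2 scale). Each row of the table is 1 assembled transcript of a locus, the first by number, and other transcripts of that locus were not analysed here. A gene is given by its row with the highest mean FPKM. Of 19320 rows that the authors' software considered testable, 66.6% run antisense to the gene they are named for, although the library kit was strand-specific. A value can therefore hold reads of a gene or of a transcript antisense to it, and which of these it holds was not tested. Each enzyme is shown on both strands where both are listed.

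Most measured enzymes of this set were lower in Ad-MAFG livers, except with total FPKM set equal between groups. Further genes of the pathway, given below, were mostly not called. Of the 10 enzymes, 8 passed the floor of 1 FPKM, and 5 of these were called lower (Cyp7b1, Cyp27a1, Slc27a5, Baat and Cyp7a1), none higher, while 3 were not called (Akr1d1, Amacr and Cyp39a1). With total FPKM set equal between groups, which adds 0.94 to every log2 ratio, Cyp7b1 and Cyp27a1 were lower and Amacr and Cyp39a1 higher. Cyp7a1 (-0.01), Slc27a5 (-0.34) and Baat (-0.17) were then no longer called. At that setting 2.18% of all gene names past the floor were lower and 77.7% higher, with a median log2 ratio of 0.88. In the total FPKM 3 unnamed transcripts hold 90.5% of the Ad-CMV FPKM and 81.8% of the Ad-MAFG FPKM. Without that scaling, the median log2 ratio of the 8 enzymes was -1.03, against -0.06 over 9096 gene names that passed the same floor. Of those gene names 12.1% were called lower and 10.7% higher, and of 7540 protein-coding names 11.3% were lower and 10.8% higher. Each of the 8 enzymes reached 5 FPKM in its higher group, and among the 2838 gene names that did so 18.2% were called lower.

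**Figure D1:**
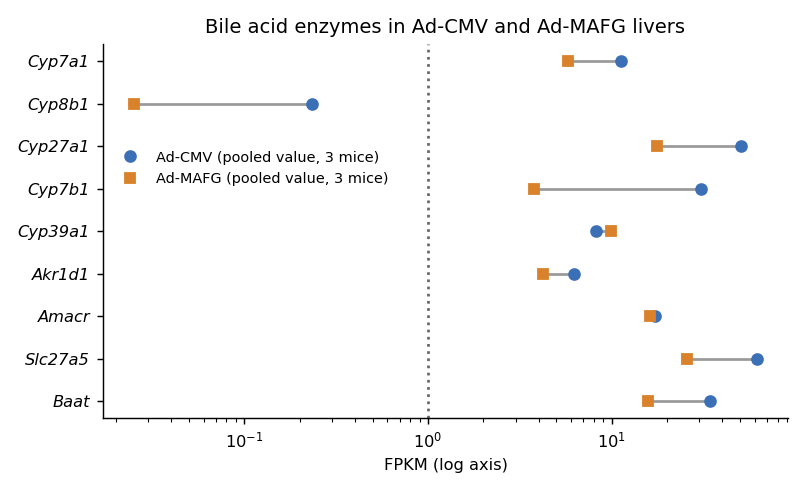
FPKM of each listed enzyme on a log axis, as the authors' pooled value for Ad-CMV (circles) and Ad-MAFG (squares), with a dotted line at the floor of 1 FPKM. Cyp7b1 spans the widest gap of the enzymes above the floor, from 30.7 to 3.76 FPKM, whereas Amacr and Cyp39a1 lie close together and Cyp8b1 lies below the floor in both groups.

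In the classic pathway, Cyp7a1 (chromosome 4, 6265612 to 6275633, GRCm38, minus strand), its rate-limiting enzyme, had 11.2 FPKM in Ad-CMV and 5.79 FPKM in Ad-MAFG, a log2 ratio of -0.95. That row lies opposite to the gene. On the strand of the gene Cyp7a1 had 6.03 and 2.91 FPKM, a log2 ratio of -1.05. Both listed transcripts were thus near 1.93-fold to 2.07-fold lower in Ad-MAFG, although the level itself differed between the strands. With total FPKM set equal the ratio of Cyp7a1 was -0.01.

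Cyp8b1 (chromosome 9, 121914356 to 121916305, minus strand), the hydroxylase that leads to cholic acid, was listed in a single row on its own strand at 0.234 FPKM in Ad-CMV and 0.0250 FPKM in Ad-MAFG. Both values of this listed transcript lie below the floor, so no ratio is given and the level of the gene could not be read. The classic pathway is therefore represented by Cyp7a1 alone above the floor. At the same assembled locus a row named for the chemokine receptor Ackr2, on the strand opposite to Ackr2 and therefore on that of Cyp8b1, had 1.01 and 0.711 FPKM (log2 ratio -0.50).

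The alternative pathway held the enzyme with the lowest ratio of the set. Cyp7b1 (chromosome 3, 18071950 to 18243338, minus strand), the oxysterol hydroxylase, had 30.7 FPKM in Ad-CMV and 3.76 FPKM in Ad-MAFG. This is a log2 ratio of -3.03, or 8.16-fold lower, and 12.2% of the control level remained. Of 9096 gene names ordered from the lowest ratio, Cyp7b1 was number 46.

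Cyp7b1 was also listed in 2 rows on the opposite strand, which were lower too. The more abundant of them had 17.9 and 2.31 FPKM (log2 ratio -2.95), and the other 4.62 and 0.948 FPKM (-2.29). Within the same locus a row named for the microRNA Gm23726, on the plus strand like these, had 5.91 and 0.781 FPKM, with a log2 ratio of -2.92.

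Cyp27a1 (chromosome 1, 74713574 to 74737892, plus strand), the mitochondrial side chain hydroxylase whose promoter is printed above, had 50.7 FPKM in Ad-CMV and 17.6 FPKM in Ad-MAFG. Its log2 ratio of -1.53 was at place 195 of the 9096 gene names. Cyp27a1 has 1 row, on its own strand, so no second listed transcript of that name could be compared. A row at the same locus but on the minus strand, named for the adjacent kinase subunit gene Prkag3, had 10.3 and 5.44 FPKM (log2 ratio -0.92).

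Cyp39a1 (chromosome 17, 43667425 to 43751431, plus strand) hydroxylates an oxysterol that is made mainly in brain, and so feeds a side branch of the pathway. It was the only enzyme above the floor with more FPKM in Ad-MAFG than in Ad-CMV, 9.97 against 8.25 FPKM. Its log2 ratio of 0.27 was below the threshold, and its other row on the opposite strand gave 0.26 (3.90 and 4.68 FPKM). With total FPKM set equal the ratio of Cyp39a1 was 1.21 and past the threshold. On the strand of the gene Cyp39a1 was listed at only 0.0604 FPKM in Ad-CMV and 4.18e-06 FPKM in Ad-MAFG. Cyp39a1 and Cyp7b1, which both act on oxysterols, differed by 3.30 in log2 ratio.

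**Figure D2:**
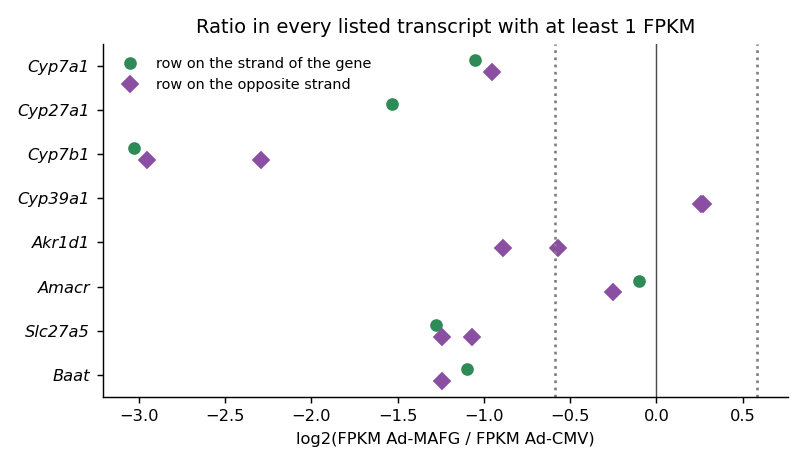
The log2 ratio of Ad-MAFG over Ad-CMV FPKM for each of the 17 listed transcripts of these enzymes with at least 1 FPKM in the higher group, on the strand of the gene (circles) or opposite to it (diamonds), with dotted lines at 1.5-fold. Rows of a gene share their sign, and 15 of the 17 lie below 0, the exceptions being both rows of Cyp39a1. A gene with several rows counts more than once, and the median over all gene names was -0.06.

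The enzymes named by the rule account for 20 rows, 9 on the strand of the gene and 11 opposite to it. Of these, 17 passed the floor, 6 on the strand of the gene and all 11 opposite rows. In 12 of the 17 the ratio was past 1.5-fold towards lower values, but a gene with several rows counts more than once here. The share over all rows was not computed, and by gene name 12.1% of those past the floor were lower. Rows of a gene share libraries and overlap in position, and are not replicates of one another. Where 2 or more rows passed the floor, as in 7 genes, their ratios had the same sign.

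Contrasting the pathways, Cyp7a1 was lower by less than Cyp7b1. The difference between their log2 ratios was 2.08, a 4.23-fold change in the balance between the 2 hydroxylases. In Ad-CMV livers Cyp7b1 had 2.74 times the FPKM of Cyp7a1, and in Ad-MAFG livers 0.649 times. Of the FPKM summed over both, Cyp7a1 made up 26.7% in Ad-CMV and 60.7% in Ad-MAFG. FPKM is per length, but each level stands for a single listed transcript of its locus. The row of Cyp7a1 lies opposite to the gene and that of Cyp7b1 on its own strand, so these levels mix strands.

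The shift of the balance was seen on either strand, while the order in Ad-MAFG was not. On the strand of each gene the share of Cyp7a1 was 16.4% in Ad-CMV and 43.7% in Ad-MAFG, so that Cyp7b1 stayed above Cyp7a1 in both groups. For opposite-strand rows the share was 38.5% and 71.5%, and with all rows of a gene summed it was 24.5% and 55.4%. The difference in log2 ratio was 1.98, 2.00 and 1.94 under these choices. Under each of these choices Cyp7b1 was the more abundant of the 2 hydroxylases in Ad-CMV, whereas the order in Ad-MAFG depends on the row.

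**Figure D3:**
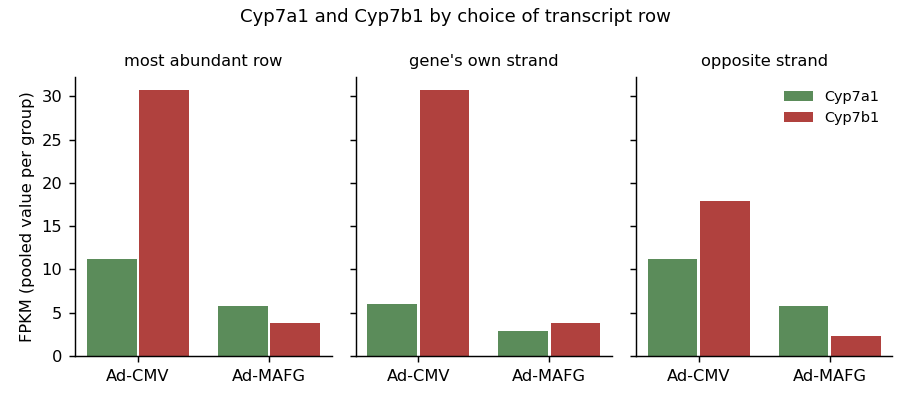
FPKM (the authors' pooled value per group, axis from 0) of Cyp7a1 and Cyp7b1 in Ad-CMV and Ad-MAFG, for the most abundant row of each gene, for rows on the strand of the gene and for the most abundant opposite row. Cyp7b1 is the taller bar in Ad-CMV in all 3 panels, and in Ad-MAFG it is the taller bar only on the strand of the gene, with 3.76 against 2.91 FPKM.

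Against Cyp27a1, the contrast was smaller. The log2 ratio of Cyp7a1 was 0.58 above that of Cyp27a1, a 1.49-fold change in their balance, which fell short of the threshold. Cyp27a1 had 4.53 times the FPKM of Cyp7a1 in Ad-CMV and 3.03 times in Ad-MAFG. With both genes on their own strand it had 8.40 and 6.04 times. The log2 ratio of Cyp7b1 was thus further from that of Cyp7a1 than the ratio of Cyp27a1 was. Since Cyp27a1 serves both routes, its contrast with Cyp7a1 does not separate them.

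Of the enzymes shared by both routes, Akr1d1 (chromosome 6, 37530173 to 37568815, plus strand), the reductase that gives bile acids their bent ring system, fell short of the threshold and was not called. It had 6.27 FPKM in Ad-CMV and 4.23 FPKM in Ad-MAFG, a log2 ratio of -0.57 or 1.48-fold. A second listed transcript of Akr1d1, also opposite to the gene, had 4.97 and 2.68 FPKM and was past the threshold at -0.89. On its own strand Akr1d1 was listed at 0.000106 and 0.336 FPKM, below the floor in both groups.

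Amacr (chromosome 15, 10981756 to 10996624, plus strand), the racemase that prepares the side chain for shortening in peroxisomes, was nearly level. It had 17.3 FPKM in Ad-CMV and 16.2 FPKM in Ad-MAFG on its own strand (log2 ratio -0.10) and 13.1 and 11.1 FPKM on the opposite strand (-0.25). With total FPKM set equal its ratio turned to 0.84. Cyp27a1 had 2.92 times the FPKM of Amacr in Ad-CMV and 1.08 times in Ad-MAFG.

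Both enzymes of conjugation were lower by similar amounts. Slc27a5 (chromosome 7, 12988346 to 12998192, minus strand), which activates bile acids with CoA, had the highest Ad-CMV level of the set, 62.0 FPKM, and 25.6 FPKM in Ad-MAFG, a log2 ratio of -1.28. Its opposite rows had 27.2 and 11.5 FPKM (-1.24) and 21.6 and 10.3 FPKM (-1.07). All 3 rows of Slc27a5 were thus between 2.10-fold and 2.43-fold lower.

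Baat (chromosome 4, 49489422 to 49506557, minus strand), the acyltransferase of the final step, had 34.1 FPKM in Ad-CMV and 15.8 FPKM in Ad-MAFG, a log2 ratio of -1.10. On the opposite strand Baat had 28.9 and 12.2 FPKM (-1.24). The ratios of Baat and Slc27a5 differed by 0.17 on the log2 scale, and Slc27a5 stayed the more abundant, at 1.82 times the FPKM of Baat in Ad-CMV and 1.61 times in Ad-MAFG.

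**Figure D4:**
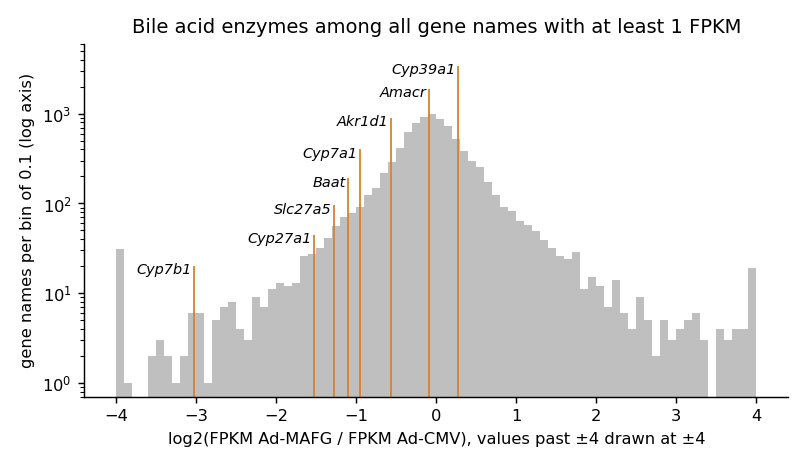
Number of gene names (log axis) by log2 ratio of Ad-MAFG over Ad-CMV FPKM, for the 9096 gene names with at least 1 FPKM in the higher group, with the 8 enzymes marked. Cyp7b1, Cyp27a1, Slc27a5, Baat and Cyp7a1 lie in the lower tail, between places 46 and 523 from the lowest ratio, and Amacr and Cyp39a1 lie in the bulk.

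Seen by place among all gene names, the 5 enzymes called lower were at percentiles from 0.506 for Cyp7b1 to 5.75 for Cyp7a1, with Cyp27a1 at 2.14, Slc27a5 at 3.06 and Baat at 4.38. Akr1d1 was at percentile 12.6, Amacr at 45.6 and Cyp39a1 at 78.1. The 5th percentile of all gene names was a log2 ratio of -1.02, and Cyp7b1, Cyp27a1, Slc27a5 and Baat lay below it and Cyp7a1 just above it.

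Other enzymes of the pathway were mostly not called. Of 17 further genes of bile acid synthesis and its electron supply, 10 passed the floor, 2 were called lower, none higher and 8 were not called, with a median log2 ratio of -0.26, where 12.1% of all gene names past the floor were lower. A count of 2 in 10 is close to that share. Akr1c14, a hydroxysteroid dehydrogenase, had 11.4 FPKM in Ad-CMV and 5.64 FPKM in Ad-MAFG (-1.01), and the sterol carrier Scp2 had a log2 ratio of -0.59, with 0.992 FPKM in Ad-MAFG. Hsd17b4, a peroxisomal enzyme of side chain shortening, had 14.9 and 10.4 FPKM (-0.51). The listed transcripts of the side chain oxidase Acox2, the oxysterol enzymes Ch25h and Cyp46a1, Slc27a2, Fdxr, Star and Acnat1 did not reach 1 FPKM in either group. Other transcripts of these loci were not analysed, so the levels of these genes could not be read.

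Among 15 regulators and transporters of bile acid synthesis, 11 passed the floor, 3 were called lower and none higher, with a median log2 ratio of -0.33, beside 12.1% lower among all gene names past the floor and 18.2% among those that reached 5 FPKM. Nr1h4, the receptor FXR, had 16.2 FPKM in Ad-CMV and 9.75 FPKM in Ad-MAFG (-0.74). Slc10a1, which takes bile acids up from blood, had 12.8 and 4.45 FPKM (-1.52), and Nr1i3, the receptor CAR, had 16.7 and 7.42 FPKM (-1.17). Nr0b2, which encodes the repressor SHP, had 2.97 and 2.36 FPKM (-0.33) and was not called. The bile salt export pump Abcb11 and the FGF co-receptor Klb were listed far below 1 FPKM in both groups, so these 2 could not be read.

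In bulk liver, fewer cells of a type and less RNA per cell cannot be told apart. Beside the marker counts below, 12.1% of all gene names past the floor were called lower and 10.7% higher. Hepatocyte markers were abundant, with Alb at 4310 FPKM in Ad-CMV and 5603 FPKM in Ad-MAFG. Of 9 names of hepatocyte markers 6 passed the floor, 3 were called lower (Apoa1 at -1.27, Fgb at -0.70 and Cps1 at -0.59) and none higher, with a median log2 ratio of -0.51. Their summed level was 6327 and 6707 FPKM, and most of that sum was Alb. Alb (0.38) was the only hepatocyte marker past the floor with a ratio above 0, with Apob at -0.32 and Hnf4a at -0.42. The name Tf, a second symbol of the gene Trf, had no row. Ttr and Trf, which hepatocytes also make, were listed under 1 FPKM in both groups. Of 5 stellate cell and fibroblast markers 4 were called higher (Col1a1 at 2.61, Col3a1 at 2.36, Col1a2 at 2.27 and Lrat at 0.77), with summed levels of 34.3 and 128 FPKM. Of 5 cholangiocyte markers 4 passed the floor and 3 were called higher (Spp1 at 1.83, Krt19 at 1.35 and Epcam at 0.62). Krt7 was at 0 in both groups. The summed levels were 16.2 and 48.4 FPKM, and most of that sum was Spp1, at 11.5 FPKM in Ad-CMV and 40.9 FPKM in Ad-MAFG. Of 6 macrophage markers 5 passed the floor, 1 was called higher (Lyz2 at 0.94) and 1 lower (Marco at -2.69), with Adgre1 at 0.31 and summed levels of 56.1 and 72.4 FPKM. Of 4 endothelial markers none was called, with Pecam1 at -0.32 and summed levels of 32.8 and 28.6 FPKM. The part of a changed cell composition in the lower enzyme levels was not tested.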

How the data were processed

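RNA was isolated from livers of 3 Ad-CMV and 3 Ad-MAFG mice, depleted of ribosomal RNA and sequenced with a strand-specific kit (paired ends, 76 bases). According to the methods and the submitters' processing notes, the tools were flexbar for adapters, Bowtie2 2.2.9 for ribosomal reads, STAR 2.6.0c for alignment to GRCm38 (mm10), and Cufflinks 2.2.1 with cuffmerge and Cuffdiff, on Ensembl release 90. The authors deposited 1 table of 68997 transcript rows and 47 columns, in which FPKM is given as 1 value per group and columns of per-sample values number 0. The authors' own fold changes, test scores, p-values and q-values also stand in it and were not used. Depth per sample is unknown. A legend of the study gives another number of mice for this experiment than the labels, which give 3 per group.

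Groups came from sample titles. Rows were matched by gene name, and a gene was represented by its row with the highest mean FPKM, with a floor of 1 FPKM in the higher group, no pseudocount, and calls at 1.5-fold. Loci are numbered along the plus strand and then the minus strand of a chromosome, which gave the strand of a row. All of 23361 rows at 0 in both groups fell on the strand of their gene by this rule. Alternatives covered the row, pseudocount, scaling, threshold and floor. The enzymes were set by name. Of each other list the first gene and up to 4 called genes were named. Nr0b2, Apob, Hnf4a, genes under the floor and neighbouring rows were named outside that rule, after their values were seen. Members and lists were chosen with earlier results of these data known. The functions were tested on simulated data. Python 3.11.15, pandas 2.3.3, numpy 2.4.6 and matplotlib 3.10.9 were used.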

Additional observations from a re-analysis of the deposited data

How the results depend on the processing

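Of 164 comparisons of a result with 14 alternatives, 138 were unaltered in direction and side of the 1.5-fold threshold or, for counts of genes, stayed within 1.5 times the main count. Some of these could not change. Scaling a whole group cancels in a difference between log2 ratios, and Cyp27a1 with its single row keeps its ratio whichever row is chosen. The count of 138 is therefore not a measure of robustness. No mouse could be left out, and no paired analysis was possible because the table holds 1 value per group. One alternative was chosen after seeing the data, equal totals without the 3 most abundant unnamed rows, and it kept the median of the enzymes at -1.02 with 5 lower and none higher. Equal totals with those rows gave a median of -0.09, with 2 enzymes lower and 2 higher (Amacr at 0.84 and Cyp39a1 at 1.21), while Akr1d1 was at 0.37 and not called. Of all gene names 2.18% were then lower and 77.7% higher, with a median of 0.88. Cyp7b1 ranged from -3.03 to -2.09 and Cyp27a1 from -1.53 to -0.59 over all alternatives. The difference between Cyp7a1 and Cyp7b1 ranged from 1.89 to 2.08, and that between Cyp7a1 and Cyp27a1 was past the threshold, at 0.63, with a pseudocount of 1 FPKM. The number of enzymes lower was 6 with rows summed (beside 11.6% of all gene names), with no floor (20.6%) and at a looser fold threshold (24.4%). It was 4 at 2-fold (5.27%) and on the opposite strand (10.8%). The added enzyme was Akr1d1 with rows summed (-0.63) and at the looser threshold. With no floor it was Cyp8b1, which lies below 1 FPKM in both groups. Own-strand rows left 6 enzymes above the floor and opposite rows 7. Of the other synthesis genes, where 2 were lower, 1 was lower on own-strand rows, on opposite rows, with a pseudocount of 0.1 or 1 FPKM, with median or upper quartile scaling, at 2-fold and with a floor of 5 FPKM. With equal totals 0 were lower, at the looser threshold 5 and with no floor 6. Of the regulators, where 3 were lower, 1 was lower on opposite rows and with equal totals, 6 at the looser threshold and 5 with no floor. Causes of these changes were not tested beyond the smaller number of genes that a choice of row or floor leaves.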

Other observations

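Some rows named for other genes lie at the loci of these enzymes. The row named for Prkag3, a kinase subunit best known from muscle, had a log2 ratio of -0.92 at the Cyp27a1 locus, and that named for Gm23726 had -2.92 at the Cyp7b1 locus. The table gives the span of a locus and not the exons of a row, so which gene these fragments came from was not tested.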
